A study of Homo sapiens with 12 samples.

Results

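The cytosolic chaperones and the heat shock response are described here through 43 genes, chosen by name from the HSP70, HSP90, HSP40, small heat shock, chaperonin and co-chaperone families together with the heat shock factors. The list was drawn up with earlier results of these data known. Shares of the list set beside those of all genes are therefore descriptive and do not test for an excess. Of these, 38 were read by a probe set annotated to a single gene symbol, and all 38 were among the 11774 genes bright enough to be tested. HSPA8 and TCP1 were read only by probe sets that also carry a small nucleolar RNA, and HSF2, HSPB11 and AHSA1 had no probe set under those names in the annotation used, so these last are not analysed here. Not every listed gene is cytosolic: HSPA9, TRAP1, HSPD1, HSPE1 and DNAJA3 encode mitochondrial proteins, HSPA13 encodes a microsomal one, and HSPB11 belongs to intraflagellar transport.

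RNA from SH-SY5Y cells, a human neuroblastoma line much used as a neuron-like model, had been hybridized to 12 Affymetrix 3′ arrays in 4 groups of 3. The labels name fibrillar amyloid-β (Aβ, the peptide of Alzheimer's disease plaques) with an incubation of 24 h, controls of 24 h, oligomeric Aβ with an incubation of 6 h, and controls of 6 h. All groups share the line and the medium, and the labels give no dose, no vehicle, and no statement on whether the hours were spent by the peptide before use or by the cells with it. Form and hours change together between the treated groups, and their parts cannot be told apart. Nor do the labels name separate cultures behind the replicates, so each p-value reflects the spread of these samples alone, which may be technical.

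Chaperones bind unfolded proteins and, with co-chaperones that load clients and drive nucleotide exchange, help them fold or pass them to degradation. HSF1 is held inactive by chaperones and, when unfolded proteins draw these away, binds inverted GAA units in the promoters of inducible chaperone genes and raises their transcription. In neurons these proteins are studied because HSP70, HSP40 and small heat shock proteins hinder the aggregation of Aβ and tau, and the HSP90 co-chaperones FKBP4, FKBP5 and STUB1 act on tau.

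The values are log2 signals, scaled by the authors to an equal trimmed mean of the linear signal on every array. A change is therefore relative to that mean and not to the median probe set. The array medians were not equal. Centring on them moved the median change of all genes between the controls from −0.02 to −0.15. Precision is limited by the number of arrays: the median standard error (SE) of a change over the 38 chaperone genes was 0.09, against 0.13 over all genes tested. Shares of intervals close to 0, given below, therefore differ with precision as well as with the size of the changes. Of the 7 noradrenergic neuroblastoma markers measured, 6 were above the filter and TH was not, while the fibroblast collagens, LUM and DCN were all above it. The epithelial list had only EPCAM above it and the glial list only S100B. In the joint blood and endothelial list PECAM1 was above it, and PTPRC and VWF were below. In bulk RNA, fewer cells of a type and less RNA per cell cannot be told apart.

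The promoters are shown first, because the element that HSF1 binds can be read in them. The RefSeq windows of GRCh38.p14, from 250 bases before to 50 after each annotated start, were searched for 2 inverted units (GAANNTTC or TTCNNGAA) and for 3 (GAANNTTCNNGAA or TTCNNGAANNTTC). Each of these patterns is its own reverse complement or that of its partner, so both strands were covered, and each match to 3 units holds 2 overlapping matches to 2 units. Of all 35116 windows, 13.5% held 2 units and 0.49% held 3. A window was found for 34 of the 38 genes, with none for HSF1, HSPA14, FKBP4 and STUB1. These genes had 47 windows, of which 16 (34.0%) held 2 units and 6 (12.8%) held 3, and known heat shock genes are part of the list. By gene, at least 1 window held 2 units in 15 of the 34 and 3 units in 6. Of the 4 genes with a window whose signals fell between the controls of the 2 times, HSP90AB1 and HSPB1 held 2 units and BAG3 and FKBP5 held none. The 250 bases before the start are printed for HSP90AB1, whose fall rests on the brightest of its disagreeing probe sets, and for HSPB1. They are printed for CHORDC1 as well, whose window held 6 matches to 2 units and whose signal passed in none of the comparisons with all arrays. Capitals mark the matched letters.
HSP90AB1, chr6:44247693-44247942, plus strand, before the third annotated start: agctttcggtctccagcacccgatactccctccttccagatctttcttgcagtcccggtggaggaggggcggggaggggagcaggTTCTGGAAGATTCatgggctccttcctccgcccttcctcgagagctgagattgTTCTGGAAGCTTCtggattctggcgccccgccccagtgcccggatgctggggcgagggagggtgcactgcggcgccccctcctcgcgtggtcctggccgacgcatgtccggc
HSPB1, chr7:76302423-76302672, plus strand: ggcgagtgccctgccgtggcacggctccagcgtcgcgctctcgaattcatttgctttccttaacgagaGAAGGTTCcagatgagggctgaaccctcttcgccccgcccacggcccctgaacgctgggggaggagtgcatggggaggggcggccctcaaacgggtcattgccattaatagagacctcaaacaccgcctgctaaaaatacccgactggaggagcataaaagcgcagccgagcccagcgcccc
CHORDC1, chr11:90223050-90223299, minus strand: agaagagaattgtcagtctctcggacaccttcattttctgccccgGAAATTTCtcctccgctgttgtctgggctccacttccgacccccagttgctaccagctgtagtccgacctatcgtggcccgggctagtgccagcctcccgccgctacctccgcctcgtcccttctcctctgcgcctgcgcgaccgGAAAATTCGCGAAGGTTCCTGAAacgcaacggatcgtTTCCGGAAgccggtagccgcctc
In HSP90AB1 the matches to 3 units lay at −165 to −153 and −112 to −100 from that start, and the windows of its other 2 starts held none. HSPB1 had 2 units at −182 to −175, and CHORDC1 had 3 overlapping matches to 3 units between −60 and −38. A match describes letters in this window and says nothing about binding in these cells.

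With fibrillar Aβ, 0 of the 38 chaperone genes passed the test against the 24 h controls (limma, Benjamini-Hochberg adjusted p under 0.05), against 1.19% of all genes tested. An unadjusted p under 0.05 was reached by 6 of the 38 (15.8%), against 14.2% of all genes. The median change over the list was 0.03 on the log2 scale, against 0.00 over all genes. Of the 38 intervals (95%, unadjusted), 31 (81.6%) lay within 0.5 on either side of 0, against 58.8% of all genes, whose median SE was larger (0.13 against 0.09). The fibrillar and control arrays did not overlap for DNAJB5 and CCT4, which were higher, and for HSP90AB1, STIP1, HSPE1, HSPA12A, CCT3 and DNAJB4, which were lower, against 10.9% of all genes higher and 8.73% lower in the same way.

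No core gene of the heat shock response passed the test with fibrils. HSF1, its transcription factor, had log2 signals of 6.29, 5.66 and 6.57 in fibrillar arrays, against 5.64, 6.10 and 6.51 in 24 h controls. The spread within each group, with SDs of 0.47 and 0.43, was larger than the difference of 0.09 (SE 0.26). DNAJB1, the inducible HSP40 partner of HSP70, had 7.92, 7.41 and 7.56 in fibrillar arrays, against 7.66, 7.69 and 7.36 in controls, and these ranges overlap. HSP90AA1, the inducible cytosolic HSP90, had 13.60, 13.43 and 13.42 in fibrillar arrays, against 13.22, 13.44 and 13.48 in controls. Its change was 0.10 (SE 0.08, adjusted p = 0.632), and replicate 1 was the highest fibrillar and the lowest control array. HSPH1, an HSP110 that exchanges nucleotide on HSP70, had 10.78, 10.68 and 10.56 with fibrils, against 10.56, 10.49 and 10.53 in controls, a difference of 0.14 (SE 0.07, adjusted p = 0.349). Another probe set of HSPH1 gave a difference of the other sign, −0.51 (SE 0.15, adjusted p = 0.145 over all single-symbol probe sets). HSPB1, the small heat shock protein HSP27, had 8.60, 8.45 and 8.69 with fibrils, against 8.61, 8.60 and 8.57 in controls, and its interval of −0.19 to 0.17 bounds the change closely.

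The inducible HSP70 genes HSPA1A and HSPA1B, near-identical copies that shared their probe sets, are not among the listed genes. Their brightest set had 10.46, 9.86 and 10.08 in fibrillar arrays, against 9.98, 9.80 and 9.77 in 24 h controls. The difference of 0.29 (SE 0.12) had an adjusted p of 0.325 over the probe sets with several or no symbols, and the fibrillar range reached into the control range. HSPA8, the constitutive HSP70, was read by 4 probe sets shared with the nucleolar RNAs SNORD14C and SNORD14D, 3 of them with the array maker's suffix for possible cross-hybridization. The brightest had 13.21, 13.00 and 13.14 with fibrils, against 12.88, 12.96 and 12.94 in controls, a difference of 0.19 (SE 0.09, adjusted p = 0.347). The 1 without that suffix had 11.92, 11.95 and 11.80 with fibrils, against 12.094, 12.004 and 11.991 in controls. These sets of HSPA8 differed in sign, and neither passed. The remaining sets had the sign of the brightest, 0.09 (SE 0.07) and 0.06 (SE 0.06), and did not pass.

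The smallest p-values with fibrils belonged to 2 members with higher and 2 with lower means. DNAJB5, an HSP40 family member, had 6.44, 6.23 and 6.29 in fibrillar arrays, against 5.74, 5.92 and 5.58 in 24 h controls. Every fibrillar array lay above every control array, with a difference of 0.57 (SE 0.18, 1.48-fold) and an adjusted p of 0.148. HSP90AB1, the constitutive cytosolic HSP90, had 10.995, 11.133 and 10.871 in fibrillar arrays, against 11.23, 11.32 and 11.20 in controls. All fibrillar arrays were lower, with a difference of −0.25 (SE 0.08) and an adjusted p of 0.165. STIP1, the adaptor also called HOP that passes clients between HSP70 and HSP90, had 7.23, 6.85 and 7.25 with fibrils, against 7.65, 7.60 and 7.43 in controls. Its groups did not overlap either, with a difference of −0.45 (SE 0.16, adjusted p = 0.194). BAG3, which exchanges nucleotide on HSP70 and directs clients to autophagy, had 7.28, 6.94 and 7.23 with fibrils, against 7.01, 6.76 and 6.69 in controls. The lowest fibrillar array lay below the highest control array, and the difference was 0.33 (SE 0.12, adjusted p = 0.222). Over the alternative settings the lowest adjusted p of any of the 38 genes in this comparison was 0.0765, for HSP90AB1.

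**Figure D1:**
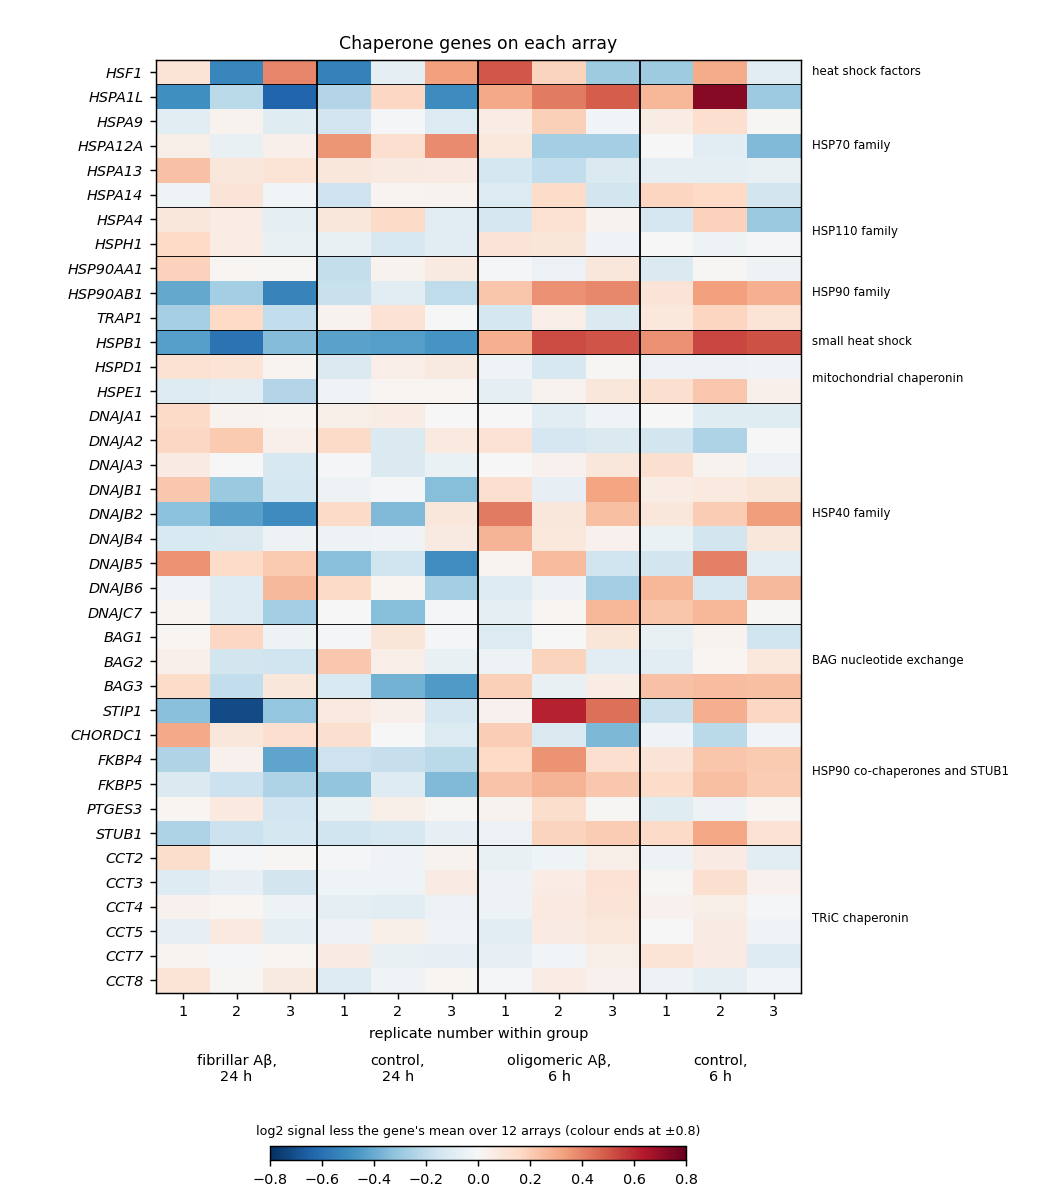
Log2 signal of the 38 tested chaperone genes (rows, by role) on the 12 arrays (columns, by group and replicate number), as the difference from each gene's mean over the 12 arrays, in colour. HSPB1, HSP90AB1, FKBP4 and FKBP5 are lower on the 24 h arrays of both groups than on the 6 h arrays, and the chaperonin genes CCT2 to CCT8 are close to 0 throughout on the brightest sets shown.

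With oligomeric Aβ the list lay close to the 6 h controls. None of the 38 genes passed, against 0% of all genes tested, and 0 of the 38 had an unadjusted p under 0.05, against 327 of 11774 (2.78%) of all genes. The changes ran from −0.27 for DNAJB6 to 0.27 for STIP1, with a median of 0.01. Of the 38 intervals, 34 (89.5%) lay within 0.5 on either side of 0, against 65.8% of all genes, whose median SE was larger (0.13 against 0.09). Groups did not overlap for CCT8, which was higher, and for TRAP1, BAG3 and HSPA13, which were lower, against 3.6% of all genes higher and 3.76% lower.

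The 4 genes with the smallest p-values in the oligomer comparison had an adjusted p of 1.0 each. DNAJB6, an HSP40 that suppresses the aggregation of polyglutamine and Aβ in test systems, had 7.73, 7.79 and 7.56 in oligomeric arrays, against 8.10, 7.71 and 8.09 in 6 h controls. Control replicate 2 lay within the oligomeric range. A brighter probe set, annotated to both DNAJB6 and TMEM135, gave a change of the other sign, 0.05 (SE 0.10). TRAP1, the mitochondrial HSP90, had 7.84, 8.03 and 7.87 with oligomers, against 8.06, 8.15 and 8.09 in controls, so that all oligomeric arrays were lower (−0.19, SE 0.11). DNAJB4, a further HSP40, had 8.09, 7.90 and 7.85 with oligomers, against 7.76, 7.67 and 7.90 in controls. STIP1 had 7.60, 8.18 and 8.01 with oligomers, against 7.39, 7.86 and 7.73 in controls, and both overlap. The genes of the heat shock response gave intervals on both sides of 0: HSF1 gave 0.16 (SE 0.26) in these arrays, DNAJB1 gave 0.05 (SE 0.13) and HSP90AA1 gave 0.06 (SE 0.08). HSPH1 gave 0.08 (SE 0.07) and HSPB1 −0.03 (SE 0.09), and the brightest HSPA1A and HSPA1B set 0.04 (SE 0.12). The brightest HSPA8 set gave 0.07 (SE 0.09) and the set without the cross-hybridization suffix 0.15 (SE 0.08). Its remaining sets gave 0.03 and −0.01.

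**Figure D2:**
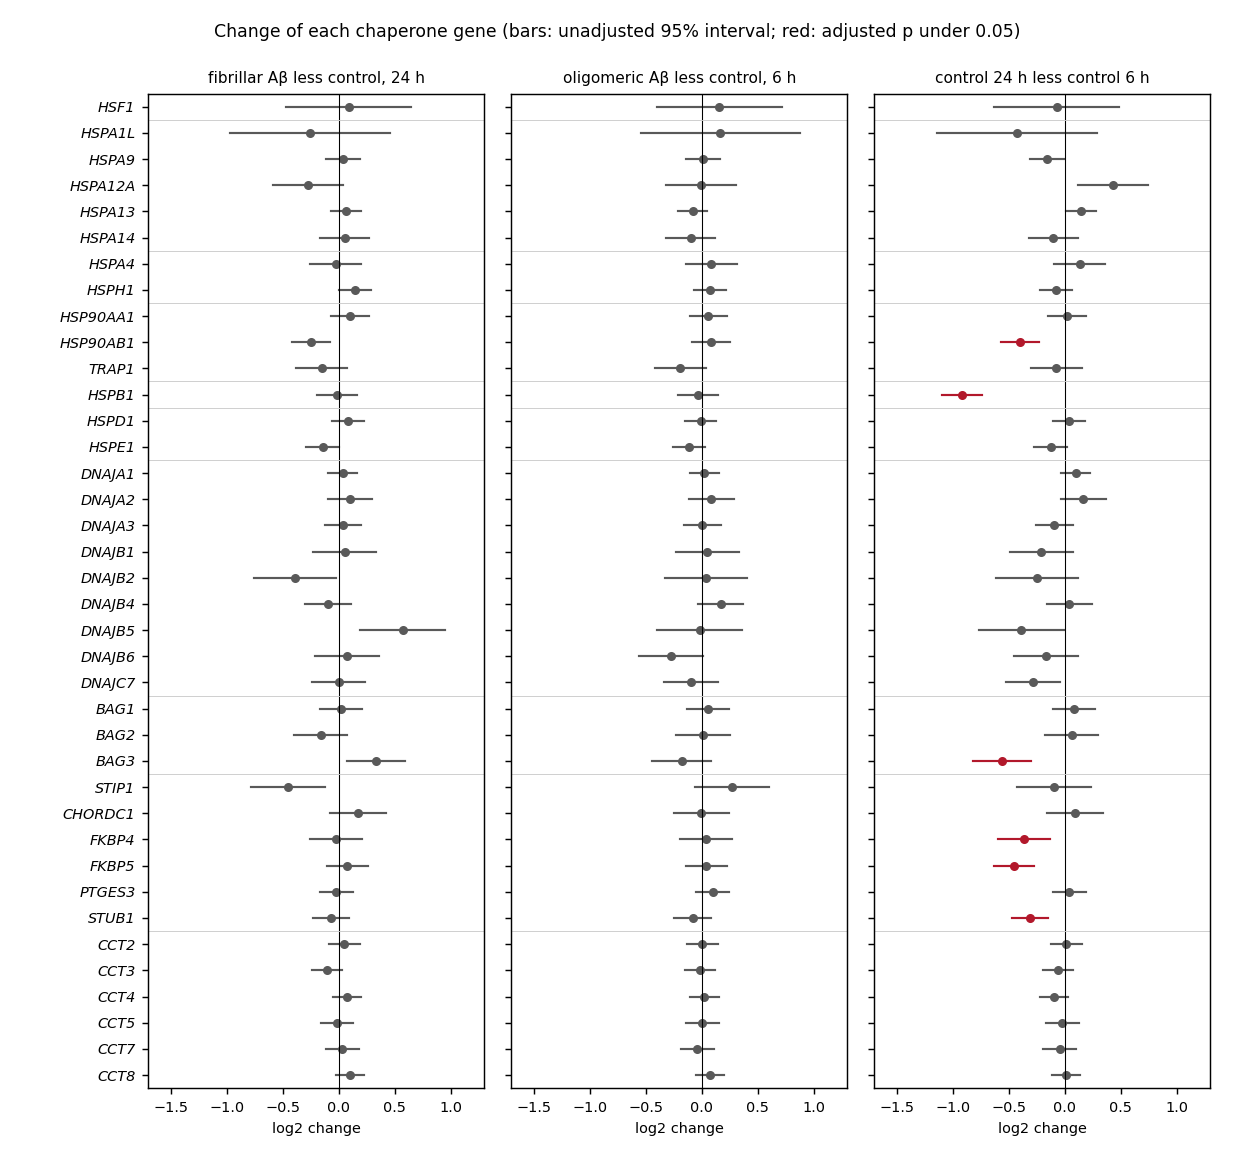
Log2 change of each of the 38 chaperone genes with fibrillar Aβ against 24 h controls (left), with oligomeric Aβ against 6 h controls (middle) and in 24 h against 6 h controls (right). Points are the limma estimates, lines the unadjusted 95% intervals from 3 arrays a group with a spread shared by all 12, and red marks an adjusted p under 0.05, which occurs for 6 genes and in the right panel alone.

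The difference between the fibril and the oligomer response was tested directly, and 0 of the 38 genes passed, against 0.0425% of all genes. The smallest p-values were those of STIP1, with a fibril response of −0.45 and an oligomer response of 0.27, a difference of −0.72 (SE 0.22, adjusted p = 0.312), and of HSP90AB1, with −0.25 and 0.09, a difference of −0.34 (SE 0.11, adjusted p = 0.357). BAG3 had 0.33 with fibrils and −0.18 with oligomers, a difference of 0.51 (SE 0.17, adjusted p = 0.357), and DNAJB5 had 0.57 and −0.02, a difference of 0.59 (SE 0.25, adjusted p = 0.515). These intervals leave out 0 before adjustment and did not pass after it, which does not show that the responses were alike.

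Calls among the chaperone genes came between the controls of the 2 times, and none with either preparation. In 24 h controls against 6 h controls 6 of the 38 genes fell (15.8%), against 7.92% of all genes tested, and 0 rose, against 3.76%. The 6 were HSPB1, HSP90AB1, BAG3, FKBP5, FKBP4 and STUB1. The median change over the list was −0.07, against −0.02 over all genes. A change below 0 was found in 24 of the 38 genes, against 6189 of 11774 of all genes. With the mean of each gene's probe sets the list's median was 0.01 and 18 of the 38 were below 0, so this tilt rests on the brightest sets. An unadjusted p under 0.05 was reached by 11 (28.9%), against 26.6% of all genes. The arrays of the 2 times did not overlap for 13 genes that were lower at 24 h (34.2%), against 18.9% of all genes, and for HSPA12A and HSPA13, which were higher, against 13.7%.

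HSPB1 had the largest change of the 38. Its log2 signals were 8.61, 8.60 and 8.57 in 24 h controls, against 9.41, 9.57 and 9.55 in 6 h controls, a change of −0.91 (SE 0.09, 0.53-fold, adjusted p = 1.3e-05). The gap between the groups was several times the spread within each, with SDs of 0.02 and 0.09. HSP90AB1 had 11.23, 11.32 and 11.20 in 24 h controls, against 11.51, 11.73 and 11.69 in 6 h controls, a change of −0.40 (SE 0.08, adjusted p = 0.00455). This call was made on the brightest probe set. Another probe set of HSP90AB1 rose by 0.95 (SE 0.19, adjusted p = 0.0054 over all single-symbol probe sets), with means of 9.72 in 24 h controls and 8.77 in 6 h controls, and the remaining set had 0.06 (SE 0.12). With the mean of its probe sets HSP90AB1 gave 0.21 (adjusted p = 0.226), so the direction rests on which probe set is read.

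BAG3 had 7.01, 6.76 and 6.69 in 24 h controls, against 7.37, 7.39 and 7.38 in 6 h controls, a change of −0.56 (SE 0.12, adjusted p = 0.00786). The 6 h controls lay close together (SD 0.01, n = 3), and the 24 h controls were all lower. Among the HSP90 co-chaperones, FKBP5, a peptidyl-prolyl isomerase that is also a classic glucocorticoid-induced gene, had 7.84, 8.05 and 7.80 in 24 h controls, against 8.30, 8.40 and 8.36 in 6 h controls. It fell by 0.45 on the log2 scale (SE 0.09, adjusted p = 0.00315), and its other probe set had −0.38 (SE 0.16, adjusted p = 0.149 over all single-symbol sets). FKBP4, its relative that binds the same site of HSP90, had 7.76, 7.74 and 7.71 in 24 h controls, against 8.03, 8.15 and 8.14 in 6 h controls. The change of −0.37 (SE 0.11) had an adjusted p of 0.0399, and without any 1 of the 6 control arrays it no longer passed, with adjusted p-values from 0.0607 to 0.124. With the mean of its probe sets FKBP4 gave a smaller change of −0.22 (SE 0.10, adjusted p = 0.162). STUB1, the ubiquitin ligase CHIP that marks chaperone-bound clients for degradation, had 10.23, 10.26 and 10.32 in 24 h controls, against 10.54, 10.69 and 10.50 in 6 h controls. Its change was −0.31 (SE 0.08, adjusted p = 0.0161), and the call was lost without 24 h control replicate 1 (0.0646) or without 6 h control replicate 2 (0.0878).

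**Figure D3:**
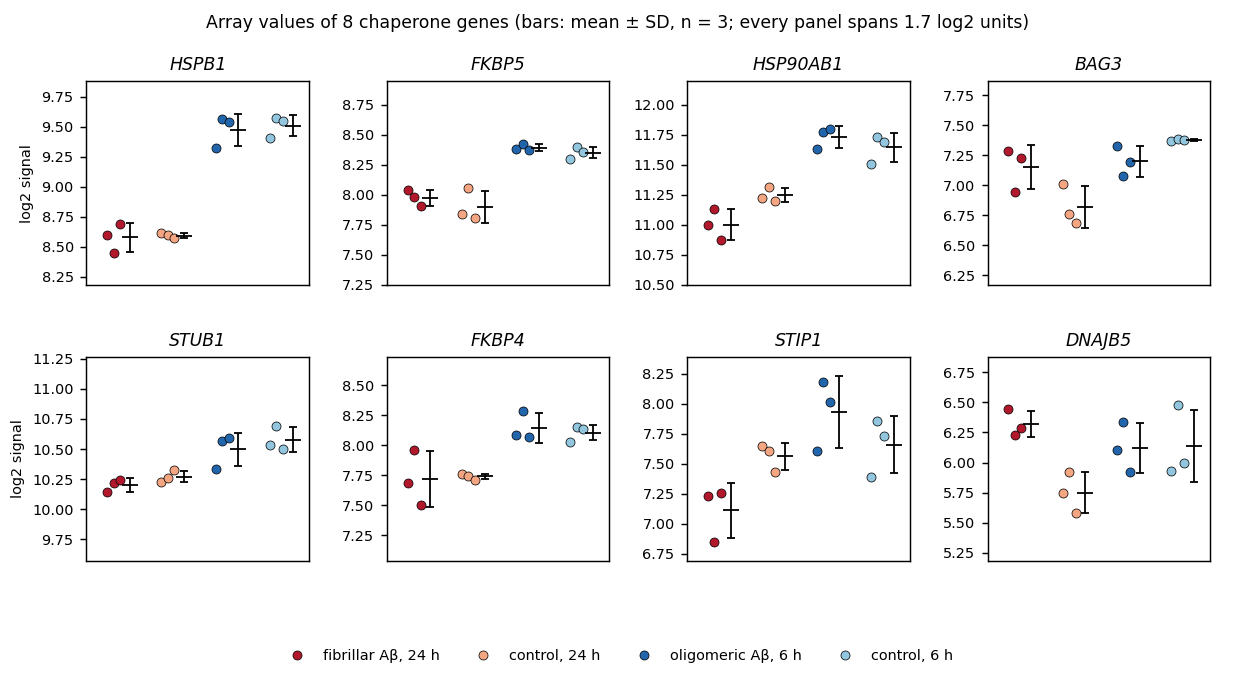
Log2 signal on each array (points, 3 per group) with the mean ± SD beside them for the 6 genes that fell between the controls, and for STIP1 and DNAJB5, in fibrillar 24 h, control 24 h, oligomeric 6 h and control 6 h arrays. For HSPB1 and FKBP5 both 24 h groups lie below both 6 h groups, whereas the fibrillar BAG3 values of 6.94 to 7.28 reach into the oligomeric range of 7.08 to 7.33.

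The treated arrays gave the same comparison of hours on other arrays, though the peptide's form changes with them, and it was added after the data were seen. In fibrillar 24 h against oligomeric 6 h arrays 7 of the 38 genes fell, against 8.61% of all genes, and 1 rose, against 6.51%. Of the 6 genes that fell between the controls, 5 fell here as well (83.3% of those called in the controls, and 62.5% of the 8 called here): HSPB1, HSP90AB1, FKBP5, FKBP4 and STUB1. Over all genes 1375 were called between the controls and 1781 here, and their overlap was not computed. Whether the chaperone genes overlap more than all genes was therefore not tested. HSPB1 had 8.60, 8.45 and 8.69 in fibrillar arrays, against 9.32, 9.56 and 9.54 in oligomeric arrays, a change of −0.90 (SE 0.09, adjusted p = 3.75e-05). FKBP5 had 8.04, 7.98 and 7.91 in fibrillar arrays, against 8.39, 8.43 and 8.37 in oligomeric arrays, a change of −0.42 (SE 0.09, adjusted p = 0.00448). FKBP4 had 7.69, 7.96 and 7.50 in fibrillar arrays, against 8.08, 8.29 and 8.06 in oligomeric arrays (−0.43, SE 0.11, adjusted p = 0.0152), and its other probe set fell as well, by 0.57 on the log2 scale (SE 0.14). STUB1 had 10.14, 10.22 and 10.25 in fibrillar arrays, against 10.34, 10.57 and 10.59 in oligomeric arrays (−0.30, SE 0.08, adjusted p = 0.0167). In each of these genes the groups did not overlap. The call of FKBP4 was lost without oligomeric replicate 2 (adjusted p = 0.0779) or fibrillar replicate 3 (0.0831), and that of STUB1 without oligomeric replicate 2 (0.0741), oligomeric replicate 3 (0.0711) or fibrillar replicate 1 (0.0616).

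HSP90AB1 was lower in fibrillar than in oligomeric arrays by a larger amount than between the controls, −0.73 (SE 0.08, adjusted p = 6.11e-05), with 10.995, 11.133 and 10.871 in fibrillar arrays, against 11.63, 11.77 and 11.79 in oligomeric arrays. The difference between these 2 time differences is the difference of the responses given above, which did not pass for HSP90AB1. Its other probe sets again disagreed, 1 falling by 0.52 (SE 0.12) and 1 rising by 0.83 (SE 0.19). STIP1, DNAJB2 and HSPA13 were called here and not between the controls, though the test of that difference did not pass for any of these genes. STIP1 had 7.23, 6.85 and 7.25 in fibrillar arrays, against 7.60, 8.18 and 8.01 in oligomeric arrays (−0.82, SE 0.16, adjusted p = 0.00266), where the controls gave −0.10 (SE 0.16). With the mean of its probe sets STIP1 gave −0.32 here (adjusted p = 0.255), and HSP90AB1 −0.14 (adjusted p = 0.426), so neither call holds on that reading. DNAJB2, a neuronal HSP40, had 5.59, 5.48 and 5.41 in fibrillar arrays, against 6.33, 6.00 and 6.15 in oligomeric arrays (−0.67, SE 0.17, adjusted p = 0.0165), a call lost without oligomeric replicate 1 (0.0534) or fibrillar replicate 3 (0.0599). Without oligomeric replicate 1 CHORDC1 was called higher as well, at 0.41 (adjusted p = 0.0151), against 0.27 (adjusted p = 0.135) with all arrays. HSPA13, the microsomal HSP70, had 10.06, 9.91 and 9.93 in fibrillar arrays, against 9.68, 9.63 and 9.71 in oligomeric arrays, and rose by 0.30 (SE 0.06, adjusted p = 0.00542). BAG3 gave −0.05 (SE 0.12), with 7.28, 6.94 and 7.23 in fibrillar arrays, against 7.33, 7.08 and 7.20 in oligomeric arrays, and its difference from the controls' −0.56 is again the contrast of responses given above, which did not pass.

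Other measures moved with the hours. The 3′ less 5′ signal of GAPDH, a sign of RNA integrity and labelling, was 0.47 to 0.52 in 24 h controls, against 0.77 to 0.83 in 6 h controls, and that of ACTB was 2.34 to 2.65 in 24 h controls, against 2.82 to 3.25 in 6 h controls. With their mean as a covariate, added after the data were seen, 3 of the 38 genes were called lower between the controls: HSPB1, HSP90AB1 and FKBP4. Calls over all genes tested dropped too, from 1375 to 467, of which 308 were lower. BAG3 then had an adjusted p of 0.221, STUB1 of 0.0819 and FKBP5 of 0.0651, with changes of −0.41, −0.37 and −0.46. Without the covariate these changes were −0.56, −0.31 and −0.45. The SEs were 0.18, 0.12 and 0.13 with the covariate, against 0.12, 0.08 and 0.09 without it. In the treated arrays these measures overlapped, at 0.49 to 0.81 in fibrillar arrays against 0.66 to 0.80 in oligomeric arrays for GAPDH. The fibrillar arrays also reached above the 24 h controls in both measures, with ACTB at 2.48 to 3.06, though the ranges overlapped. With the covariate 39 of all genes were called with fibrils, against 140 without it, and 0 of the 38 chaperone genes either way. Of the 6 noradrenergic markers tested, PHOX2A fell by 0.44 and DBH fell by 0.50 on the log2 scale between the controls. The others were not called, with 0.43 for HAND2, −0.004 for ISL1, −0.06 for GATA2 and −0.15 for GATA3. The list's summed signal was 10556 to 11910 in 24 h controls, against 12119 to 12932 in 6 h controls. Of the 5 fibroblast markers DCN rose by 0.74 and was the only one called. COL1A2 had −0.78, LUM 0.36, COL1A1 0.13 and COL3A1 0.01, so the list did not move as one. Its summed signals were 3212 to 4118 in 24 h controls, against 2917 to 3516 in 6 h controls. The part of these in the chaperone changes was not tested beyond that covariate.

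The remaining members had no call between the controls. In the HSP70 family HSPA12A, a divergent member, had 6.76, 6.54 and 6.79 in 24 h controls, against 6.40, 6.32 and 6.05 in 6 h controls, all higher at 24 h, with a change of 0.43 (SE 0.15, adjusted p = 0.068). HSPA9, the mitochondrial HSP70 that pulls proteins in through the inner membrane, gave −0.16 (SE 0.07) and HSPA13 gave 0.15 (SE 0.06), both with an unadjusted p under 0.05. HSPA14, a ribosome-associated member, gave −0.10 (SE 0.10). The brightest HSPA8 set gave 0.02 (SE 0.09) and the set without the cross-hybridization suffix 0.13 (SE 0.08). Its remaining sets gave −0.15 (SE 0.06) and −0.14 (SE 0.07), and none was called. HSPA1L, a testis-enriched HSP70 close to the filter with group means of 3.79 to 4.64, gave −0.43 with an SE of 0.34, so that little can be said of it. The HSP110 gene HSPA4 gave 0.14 (SE 0.11) and HSPH1 −0.07 (SE 0.07). HSP90AA1 had 13.22, 13.44 and 13.48 in 24 h controls, against 13.29, 13.42 and 13.37 in 6 h controls (0.02, SE 0.08), overlapping ranges. TRAP1 gave −0.07 (SE 0.11).

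Among the HSP40 genes, the partners that deliver clients to HSP70 and start its ATP hydrolysis, 0 of 9 were called between the controls. Over all genes 7.92% fell and 3.76% rose, so a count of 0 in so few genes says little. A change below 0 was found in 6 of 9, against 6189 of 11774 of all genes. DNAJB1 had 7.66, 7.69 and 7.36 in 24 h controls, against 7.76, 7.78 and 7.80 in 6 h controls, which do not overlap, with a change of −0.21 (SE 0.13, adjusted p = 0.349). DNAJB5 gave −0.39 (SE 0.18) and DNAJC7, which also binds HSP90, −0.28 (SE 0.11), and neither passed. DNAJA1 and DNAJA2, cytosolic partners of HSPA8, gave 0.10 (SE 0.06) and 0.17 (SE 0.09), and DNAJA3, the mitochondrial member, −0.09 (SE 0.08). DNAJB2 gave −0.24, DNAJB4 0.04 and DNAJB6 −0.17. The brighter set shared by DNAJB6 and TMEM135 gave 0.24 (SE 0.10, adjusted p = 0.162 over the probe sets with several or no symbols). Of the nucleotide exchange factors, BAG1 and BAG2 gave 0.09 (SE 0.09) and 0.06 (SE 0.11), against −0.56 for BAG3. HSF1 had 5.64, 6.10 and 6.51 in 24 h controls, against 5.89, 6.48 and 6.09 in 6 h controls, with a change of −0.07 (SE 0.26). Of the remaining HSP90 co-chaperones, PTGES3, the p23 that stabilises the closed form, gave 0.04 (SE 0.07) and CHORDC1 0.09 (SE 0.12).

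The chaperonin genes gave changes close to 0 on the brightest probe set of each, but not on every set. The cytosolic TRiC ring, which folds actin and tubulin, was represented by CCT2, CCT3, CCT4, CCT5, CCT7 and CCT8. Over these 6 subunits the changes ran from −0.11 for CCT3 to 0.10 for CCT8 with fibrils, from −0.04 for CCT7 to 0.08 for CCT8 with oligomers, and from −0.09 for CCT4 to 0.02 for CCT2 in 24 h against 6 h controls. All 6 intervals lay within 0.5 on either side of 0 in each of these comparisons, and 0 of 6 were called. Over all genes 1.19% were called with fibrils and 0% with oligomers, and between the controls 7.92% fell and 3.76% rose. Another set of CCT2 rose by 0.48 between the controls (SE 0.11, adjusted p = 0.0144 over all single-symbol probe sets), and with the mean of its probe sets CCT2 rose by 0.25 (adjusted p = 0.0428). TCP1, the first subunit of the ring, was read with SNORA29, and its brightest set averaged 11.02 ± 0.09 in fibrillar arrays and 11.01 ± 0.03 in 24 h controls (SD, n = 3 each), 11.12 ± 0.05 in oligomeric arrays and 11.09 ± 0.05 in 6 h controls. HSPD1 and HSPE1, the mitochondrial chaperonin and its lid, gave 0.08 (SE 0.07) and −0.14 (SE 0.07) with fibrils and 0.04 and −0.13 between the controls, and neither was called. Another set of HSPD1 rose by 0.56 between the controls (SE 0.15, adjusted p = 0.0268 over all single-symbol sets), and the mean of its sets gave 0.48 (adjusted p = 0.114).

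Other probe sets of the same genes did not always follow the brightest one. Above the filter, 23 of the 38 genes had 36 further probe sets. Between the controls 22 of these 36 had the same sign as the brightest set, and their median was 0.12 against −0.07 for the brightest sets of these 23 genes. Over all genes the sets other than the brightest had a median of 0.06. Of the 36, 4 rose (11.1%), against 5.13% of all such sets, and 1 fell (2.78%), against 3.21%. The further sets that rose belonged to HSP90AB1, HSPD1, CCT2 and HSPA13, and the 1 that fell to DNAJC7. With fibrils 21 of 36 had the same sign, with a median of −0.10 against 0.04 for the brightest sets, and −0.05 for the sets other than the brightest over all genes. HSPB1 and BAG3 had 1 probe set each above the filter, so their changes have no such check.

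**Figure D4:**
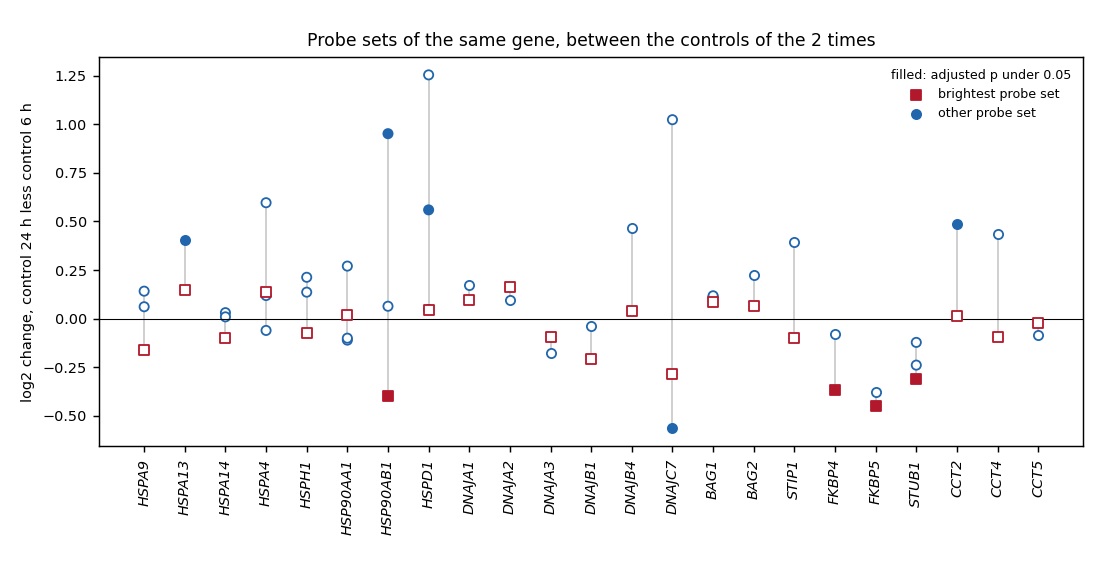
Log2 change in 24 h against 6 h controls for every single-symbol probe set above the filter, for the 23 chaperone genes with several. Squares are the brightest set of each gene, circles the others, and filled marks have an adjusted p under 0.05 over 22123 probe sets. The sets of HSP90AB1 run from −0.40 to 0.95, whereas those of FKBP5 and STUB1 all lie below 0.

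Outside the list, 63 further genes of the pathway were looked at, of which 55 were tested. None was called with either preparation. Between the controls 5 fell (9.09%), against 7.92% of all genes, and 0 rose, against 3.76%, so the share that fell was near that of all genes. Those that fell were NUDC, an HSP90 co-chaperone of the dynein pathway (−0.46, SE 0.09), PFDN1, a prefoldin subunit that hands actin and tubulin to TRiC (−0.63, SE 0.15), BAG6 (−0.32, SE 0.09), the mitochondrial disaggregase CLPB (−0.70, SE 0.19) and the J protein DNAJC14 (−0.45, SE 0.09). In fibrillar 24 h against oligomeric 6 h arrays 4 of the 55 rose (7.27%), against 6.51% of all genes, and 7 fell (12.7%), against 8.61%. Among those that fell was SERPINH1, the collagen chaperone HSP47, with a mean of 7.46 ± 0.19 in fibrillar arrays and 8.21 ± 0.18 in oligomeric arrays (SD, n = 3 each; −0.75, SE 0.12). CDC37, which loads kinases onto HSP90, averaged 7.25 ± 0.12 in fibrillar arrays and 7.87 ± 0.20 in oligomeric arrays (−0.62, SE 0.13). The other genes that fell were NUDC, PFDN1, PFDN2, TIMM44 and DNAJC14, and those that rose were PPID, CLPX, DNAJC24 and DNAJB14.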

How the data were processed

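The deposited values of the 12 arrays are log2 signals per probe set, made by the authors with MAS5 per the submitters' processing notes, where no version is given. Their linear trimmed mean, from 2% to 98%, was equal on all arrays, so they were used as deposited. Probe sets with a mean of at least 3.78 (a signal of 13.8, the median) were kept. The brightest set with 1 gene symbol stood for each gene, with symbols updated through RefSeq gene identifiers, which gave 11774 genes.

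A group-means model over all 12 arrays was fitted with limma 3.58.1 in R 4.3.3, with a mean-dependent prior variance, and p-values were adjusted by Benjamini-Hochberg over all genes tested, called under 0.05. The procedure was tested on simulated data. Array values are given for the genes called in each comparison, the 4 with the smallest p where fewer were called, and 10 core heat shock genes; all other members are given by group or change. The members and lists were chosen with earlier results of these data known, and the comparison of fibrillar 24 h with oligomeric 6 h arrays was added after the data were seen. Single-symbol probe sets (22123) and those with several or no symbols (5184) were fitted apart, each with its own adjustment. Same-numbered replicates of a treated group and its control did not deviate together (correlations of −0.02 to 0.09), and no pairing was used. Alternatives were quantile normalization, median centring, no filter, the mean over each gene's sets, log2 of the signal plus 16, a constant prior, array weights, the compared groups alone, the replicate block, each array left out, and, added later, the 3′ less 5′ covariate.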

Additional observations from a re-analysis of the deposited data

Results flagged for a closer look

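Among the probe sets of the listed genes that the comparisons above do not rest on, some also rose in 24 h against 6 h controls, and 1 of DNAJC7 fell (−0.56). For HSP90AB1 another set had a mean of 9.72 in 24 h controls and 8.77 in 6 h controls, a change of 0.951, where the set used for the gene had −0.40. For HSPD1 another set had 11.27 in 24 h controls and 10.71 in 6 h controls, a change of 0.560, where the set used had 0.04. For CCT2 another set had 10.04 in 24 h controls and 9.56 in 6 h controls, a change of 0.485, where the set used had 0.02. For HSPA13 another set had 8.25 in 24 h controls and 7.84 in 6 h controls, a change of 0.403, the same sign as the 0.15 of the set used. The dimmer probe set annotated to both DNAJB6 and TMEM135 had 9.69, 9.51 and 9.73 in 24 h controls, against 9.31, 9.42 and 9.28 in 6 h controls. Its change was 0.307 (adjusted p = 0.0411 over the probe sets with several or no symbols). DNAJB6's own set gave −0.17. Why sets of a gene differ was not tested.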

How the results depend on the processing

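In the oligomer, fibril and response difference comparisons 0 of the 38 genes were called under every setting, while the number of all genes called with fibrils ran from 7 (constant prior) to 268 (array weights), against 140. Between the controls 6 genes were called, 4 to 6 with an array left out, 9 with median centring, 4 with a constant prior and 6 with the replicate block, which changed no call of a member and whose pairing the data did not bear out. With the 3′ less 5′ covariate 3 were called, while calls over all genes dropped from 1375 to 467. With the mean of probe sets 6 were called, of which BAG3, FKBP5 and HSPB1 fell and CCT2, HSPA12A and HSPA13 rose, and HSP90AB1 gave 0.206 in place of −0.40; this averages sets of opposite sign. Median centring moved the median of all genes between the controls to −0.15 from −0.02, and 7.33% of calls were then higher, against 32.2%. With fibrils it gave 86.1% of calls higher, against 67.1%. In fibrillar 24 h against oligomeric 6 h arrays 8 genes were called, 5 with the mean of probe sets and 6 to 8 with an array left out, and the lowest 6 came without oligomeric replicate 2 or fibrillar replicate 3. There 15.1% of all genes were called, 11.4% with the mean of probe sets and 8.43% to 16.1% with an array left out. HSPB1 was called in all 22 alternative settings of both time comparisons. Of the results for single genes, 4105 kept their side of the threshold, 28 lost it, 8 gained it and 1 reversed. Of the 3826 uncalled in both settings, 257 had the other sign. FKBP4 between the controls was also lost with no filter, a constant prior and the mean of probe sets, and STUB1 with these last 2. The cause of these shifts was not tested.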
